A study of Mus musculus with 16 samples.

Results

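In mouse small-intestinal epithelium, 1036 genomic regions carried H3K27ac peaks in both libraries of E14.5 embryos and in both libraries of adult Lgr5-positive intestinal stem cells (ISC), but in no library of E12.5 embryos or of adult enterocytes. They were found by joining overlapping or touching peaks of all 8 deposited peak lists into 79482 regions, of which these 1036 are 1.30%. A library had a region when at least 1 bp of its peaks lay in it. They are called the E14.5/ISC regions here. They were chosen by the presence or absence of peaks in the 8 lists, so those patterns are given as descriptions without a test.

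E12.5 and E14.5 stand for days of embryonic development. H3K27ac is the acetylation of lysine 27 on histone H3, a mark of active promoters and enhancers. Enhancers change their activity with cell type and stage more than promoters do, so a list of acetylated regions is a partial map of the regulatory DNA in use in a cell. In mice the gut tube at E12.5 is lined by a layered, proliferating epithelium, and the first villi rise around E14.5. In the adult intestine, stem cells at the base of the crypts express Lgr5, a receptor that strengthens Wnt signalling, and their daughters mature into enterocytes, which line the villi and absorb nutrients.

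The mice were of a mixed C57BL/6 and CD1 background. Embryonic epithelium of E12.5 and of E14.5 was sorted from the small intestine as cells that carry EpCAM, a surface protein of epithelia, and lack both CD31, found on endothelium, and CD45, found on leukocytes. The adult cells came from Lgr5EGFP-Cre-ERT males at postnatal day 60, whose Lgr5 locus drives GFP. Crypt cells with high GFP were taken as ISC, and enterocytes were gated by EpCAM, CD31 and CD45 as in the embryos. The EpCAM gate takes the whole embryonic epithelium, and by its definition it does not part enterocytes from other EpCAM-positive cells. The labels state no sex for the embryos. Each group had 2 libraries, described as biological duplicates. The labelled cell types were not checked against marker genes, and no gene is named beside a region, because the gene and promoter tables at hand are on GRCm38.p6 while the peaks are on mm9. For the same reason no sequence is printed, and each region is given by its position on mm9.

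Each of the 8 ChIP libraries had between 35614 and 52510 peaks, from 34.6 to 54.6 M tags. Peaks covered 43.6 and 59.99 Mb in E12.5 replicates 1 and 2, 65.1 and 56.9 Mb at E14.5, 51.2 and 76.1 Mb in ISC and 38.8 and 38.8 Mb in enterocytes, so ISC replicate 2 had the most covered genome of all 8. These differences touch both the presence of a region and its length, and values without single libraries are given where they move a result.

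The E14.5/ISC regions were a small class among the regions that behaved alike in both libraries of every group. Of 35967 such regions, 12282 were present in all 4 groups, 3491 in every group except enterocytes and 1429 in every group except E12.5. Another 2252 were present at E14.5 alone and 3593 in ISC alone. Classes that skip a stage were smaller still, with 87 regions in E12.5 and ISC and 116 in E14.5 and enterocytes. Of the 21497 regions present in both E14.5 and both ISC libraries, 4.82% were E14.5/ISC regions.

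**Figure D1:**
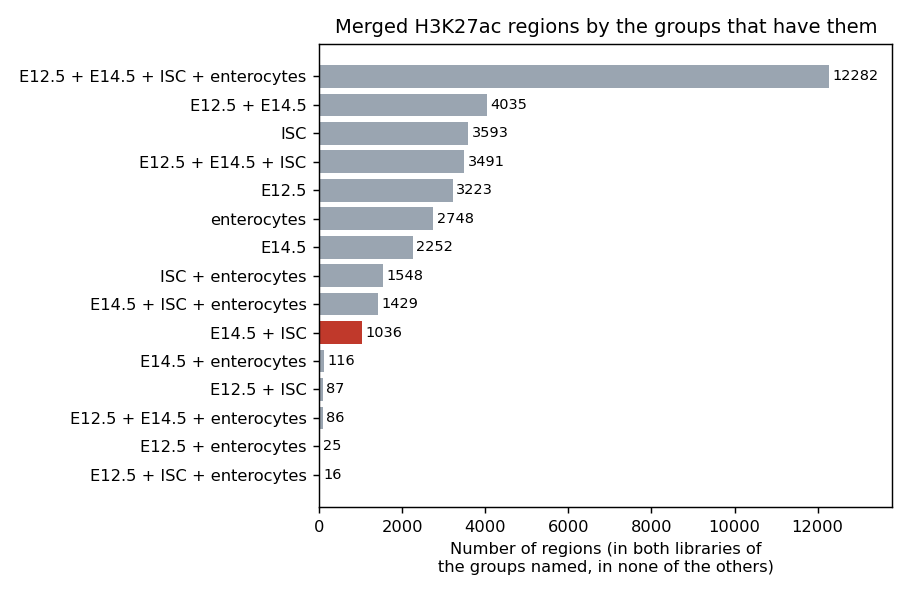
Number of merged H3K27ac regions (x axis) in each combination of groups (y axis). Only regions present in both libraries of the groups named and in no library of the others are counted. The red bar holds the 1036 E14.5/ISC regions, and the longest bar the 12282 regions of all 4 groups.

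The regions shared by E14.5 and ISC can be split by what E12.5 and enterocytes showed there. Of the 2742 shared regions with no E12.5 peak, 1036 (37.8%) had no enterocyte peak, 1429 (52.1%) had one in both enterocyte libraries and 277 (10.1%) in 1 of them. Of the 17114 shared regions with peaks in both E12.5 libraries, 3491 (20.4%) had no enterocyte peak, 12282 (71.8%) had one in both and 1341 (7.84%) in 1. These shares follow from the presence patterns and were not tested.

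Many regions missed the rule by a single library. In 953 regions the E14.5 and ISC libraries all had a peak and 1 further library did too. That library was E12.5 replicate 2 in 625 regions, E12.5 replicate 1 in 51, enterocyte replicate 1 in 111 and enterocyte replicate 2 in 166. Another 1227 regions lacked a peak in 1 of the 4 libraries only, and in 699 of them that library was ISC replicate 1. The same regions show in the counts without 1 library, which were 1743 without ISC replicate 1 and 1672 without E12.5 replicate 2.

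The regions just inside the rule had 1 very short peak. In 316 of the 1036 the least covered library had under 300 bp of peak, and the smallest value was 207 bp, the shortest peak that ISC replicate 1 holds. At chr10:74750622-74751953 the ISC libraries had 207 and 934 bp of peak, and the E14.5 libraries 1084 and 949 bp. Just outside the rule, the region chr2:14051399-14053376 had 1878 and 1892 bp in ISC and 1785 and 1279 bp at E14.5, but also 207 bp in E12.5 replicate 1. In these examples 1 peak of the least length thus decided whether a region was counted.

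The E14.5/ISC regions were of middling size. They spanned a median of 1435 bp (10th to 90th percentile 686.5 to 2857.5 bp, range 303 to 8262 bp), against 754 bp for all merged regions. Regions of E14.5 alone had a median of 550 bp and regions of ISC alone 930 bp, while regions of all 4 groups had 2871 bp. A region joins the peaks of all libraries that have it, so its length also depends on their number. The other classes of 2 groups had medians of 1065 to 1763 bp. Within the E14.5/ISC regions, the median covered length was 682 and 1306 bp in the ISC libraries, against 795 and 653.5 bp at E14.5. ISC replicate 2 stood above the other 3 libraries. A single peak made up the signal of 69.0 and 90.4% of the regions in ISC and of 74.4 and 71.7% at E14.5.

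At the median, their strongest peaks ranked below the middle of the list in ISC replicate 1 and both E14.5 replicates, and above it in ISC replicate 2. The strength of a region was taken as the percentile of its strongest peak, by −log10 q, among all peaks of the same list, since these scores belong to each list. The median percentile was 37.8 and 56.7 in ISC and 42.2 and 38.0 at E14.5. Regions of all 4 groups had medians of 85.1 and 87.6 in ISC and 87.1 and 86.2 at E14.5. The classes that differ by 1 group lay between: regions that also had enterocyte peaks had 57.9 and 68.7 in ISC and 48.1 and 44.0 at E14.5. Regions that also had E12.5 peaks had 45.8 and 60.6 in ISC and 67.3 and 63.3 at E14.5. Where enterocytes shared the region the ranks stood out most in ISC, and where E12.5 shared it they stood out most at E14.5. Only 80 E14.5/ISC regions (7.72%) ranked above the median in all 4 lists, and none ranked above the 75th percentile in all 4. The median fold enrichment over local background, as MACS gave it, was 4.39 and 6.86 in ISC and 4.88 and 4.27 at E14.5.

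**Figure D2:**
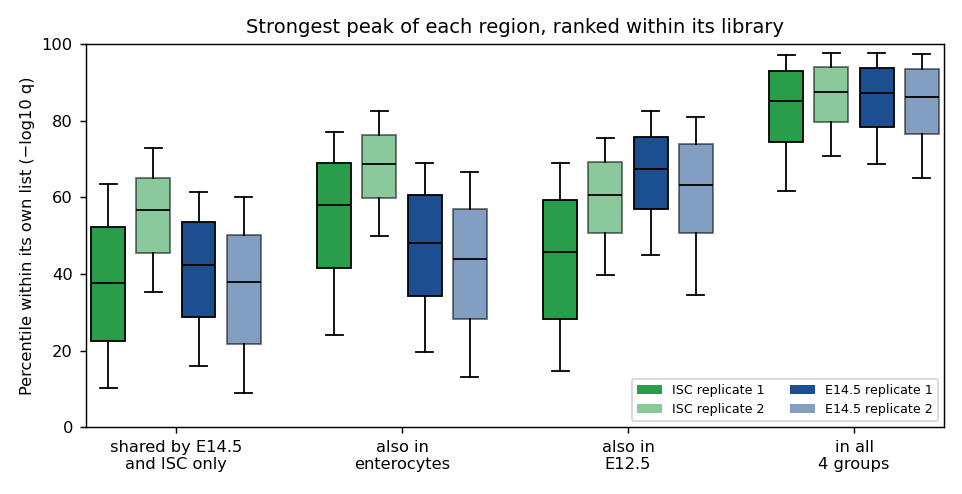
Percentile of a region's strongest peak within its own peak list by −log10 q (y axis), for 4 classes of regions (x axis) in the 2 ISC and 2 E14.5 libraries. Boxes run from the 25th to the 75th percentile of the regions with a line at the median, and whiskers end at the 10th and 90th percentiles. The E14.5/ISC regions have medians of 37.8 to 56.7, and the regions of all 4 groups of 85.1 to 87.6.

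A stricter threshold kept few of the regions and brought in others. In 139 of the 1036 (13.4%) the strongest peak reached a −log10 q of at least 10 in all 4 libraries, against 15639 of the 20461 other regions shared by E14.5 and ISC (76.4%). ISC replicate 2 passed this limit in 857 of the E14.5/ISC regions, E14.5 replicate 1 in 537, ISC replicate 1 in 469 and E14.5 replicate 2 in 332. When only peaks of at least 10 were used throughout, 713 regions met the rule, and 139 of them lay in the original E14.5/ISC regions. Of those 713, 475 (66.6%) lay in an original region with an E12.5 peak and 296 (41.5%) in one with an enterocyte peak. A missing peak in these lists means no peak at the authors' threshold, not absence of the mark. The 139 regions that passed in all 4 libraries had a median smallest covered length of 1135 bp, and 11 of the 12 longest regions described next were among them.

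The E14.5 and ISC peaks of a region lay on the same stretch of DNA in most cases. Some bases were covered in all 4 libraries in 986 of the 1036 regions (95.2%), and in 50 the peaks only chained together. This common core had a median of 337 bp, or 27.9% of the covered length, against 67.3% in regions of all 4 groups. The share was 29.4% in regions that also had enterocyte peaks and 39.8% in regions that also had E12.5 peaks. The summits of the strongest peaks were a median of 111 bp apart between an ISC and an E14.5 library, 86 bp between the ISC replicates and 105 bp between the E14.5 replicates. They lay within 200 bp of each other in 63.8 to 65.9% of regions across the stages, in 72.9% between ISC replicates and in 68.6% between E14.5 replicates. The distance between summits of different stages was thus little above that between the E14.5 replicates.

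The 12 longest E14.5/ISC regions, by the smallest covered length of the 4 libraries, show what the class looks like where its signal is broadest. The first, chr10:59215734-59220899, was covered over 3897 and 5166 bp in ISC, against 3506 and 3187 bp at E14.5. The second, chr2:91263849-91267269, had 2724 and 3400 bp in ISC and 3127 and 2830 bp at E14.5. ISC libraries were both above both E14.5 libraries in the first region and overlapped them in the second.

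Of the 12 regions, 3 lay on chromosome 15, within one stretch in which peaks of the other groups were distant. At chr15:61779064-61782256 the ISC libraries had 2767 and 3193 bp and the E14.5 libraries 2673 and 2907 bp. At chr15:61363506-61369034 the ISC libraries had 5098 and 5529 bp and the E14.5 libraries 2489 and 2551 bp. At chr15:61449414-61452795 the ISC libraries had 2384 and 3280 bp and the E14.5 libraries 2953 and 2827 bp. The groups were apart only at the second of these, where both ISC libraries were longer. The nearest E12.5 peaks lay 32910, 80024 and 165932 bp from these regions, and the nearest enterocyte peaks 33716, 81193 and 167101 bp. Within 25 kb of the third there was no other peak in any of the 8 libraries. The nearest region of all 4 groups was 706019 to 1121577 bp away, whereas the median over the E14.5/ISC regions was 29827.5 bp.

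The other 7 regions of the 12 were on chromosomes 1, 4, 5, 6, 7 and 8. The region chr4:122724558-122730340 had 4934 and 5783 bp in ISC, against 2421 and 2242 bp at E14.5. The region chr6:34102660-34106874 had 3312 and 4215 bp in ISC, against 2211 and 2280 bp at E14.5. The region chr7:120189649-120193303 had 3407 and 3647 bp in ISC, against 2310 and 2397 bp at E14.5. At all 3 the ISC libraries lay above the E14.5 libraries. A further E12.5 peak began 524 bp from the last of them, and its nearest enterocyte peak was 116793 bp away. On chromosome 1 a pair of the longest regions stood 2965 bp apart. The first of the pair, chr1:166466374-166469401, had 2379 and 3028 bp in ISC and 2389 and 2293 bp at E14.5. The second, chr1:166472366-166475009, had 2425 and 2644 bp in ISC and 2259 and 2381 bp at E14.5. Both members of the pair had some of the highest ranks of the class, at 72.8 to 85.4 in ISC and 75.4 to 81.1 at E14.5. The region chr5:114813691-114816729 had 2295 and 2772 bp in ISC and 3039 and 2557 bp at E14.5, and chr8:48017836-48020609 had 2549 and 2709 bp in ISC and 2162 and 2451 bp at E14.5.

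**Figure D3:**
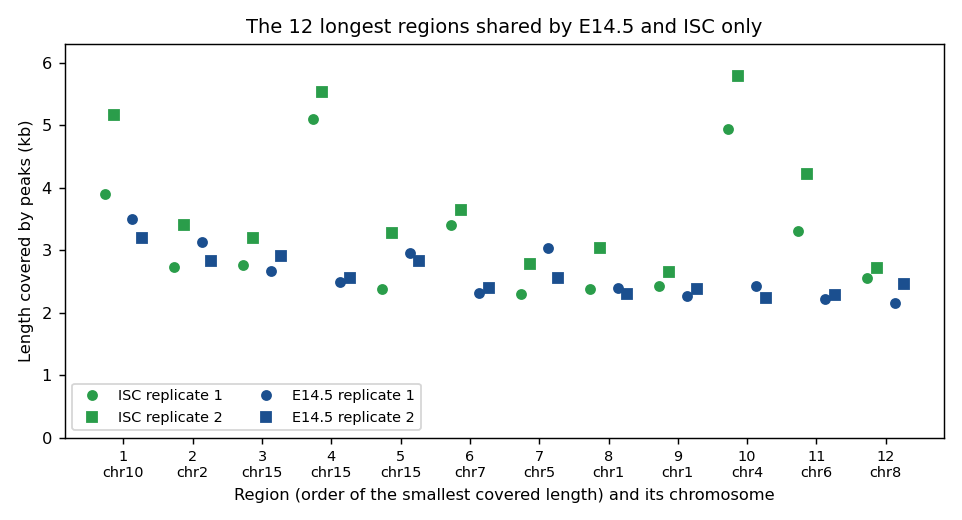
Length covered by peaks (kb, y axis) in each ISC and E14.5 library at the 12 longest E14.5/ISC regions (x axis, with their chromosomes). Each point is 1 library. The E14.5 libraries stay between 2162 and 3506 bp in all 12, whereas the ISC libraries have 4934 to 5783 bp at the fourth and the tenth region.

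The rule did not use how much longer a region was in one group than in the other, so covered length was compared between ISC and E14.5. Lengths were scaled by the covered genome of each library, and log2(scaled bp + 500) was fitted with limma over the 53123 regions with a peak in at least 2 libraries. Of the 1036 E14.5/ISC regions, 301 (29.1%) were longer in ISC and 92 (8.88%) were shorter at a Benjamini-Hochberg adjusted p under 0.05. Over all regions tested 16.1% were longer in ISC and 19.7% shorter, and over the other regions shared by E14.5 and ISC 9.73% and 9.74%. The median log2 change was 0.16 in the E14.5/ISC regions, -0.03 in the other shared regions and 0 over all regions tested. Among regions that also had enterocyte peaks, 616 of 1429 (43.1%) were longer in ISC and 36 (2.52%) shorter. Among regions that also had E12.5 peaks, 204 of 3491 (5.84%) were longer in ISC and 1108 (31.7%) shorter. The E14.5/ISC regions lay between these classes.

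The E12.5 and enterocyte libraries have no peak in any of these regions, so in this fit they add no spread, and its p-values for the E14.5/ISC regions are too small. With the E14.5 and ISC libraries alone, limma called 209 (20.2%) longer in ISC and 56 (5.41%) shorter, against 20.5 and 26.0% of all 41928 regions tested and 11.0 and 10.6% of the other shared regions. In that fit the share longer in ISC was at the level of all regions, and the share shorter was below it. Before any test, the ISC libraries were both above both E14.5 libraries in scaled length in 452 regions, both below in 206 and overlapped them in 378. The first 2 counts are 43.6 and 19.9% of the E14.5/ISC regions, against 24.7 and 32.7% of all 53123 regions tested and 26.5 and 32.0% of the other shared regions. Without ISC replicate 2, 260 E14.5/ISC regions were called longer and 153 shorter, against 4111 longer and 10193 shorter over all regions tested.

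**Figure D4:**
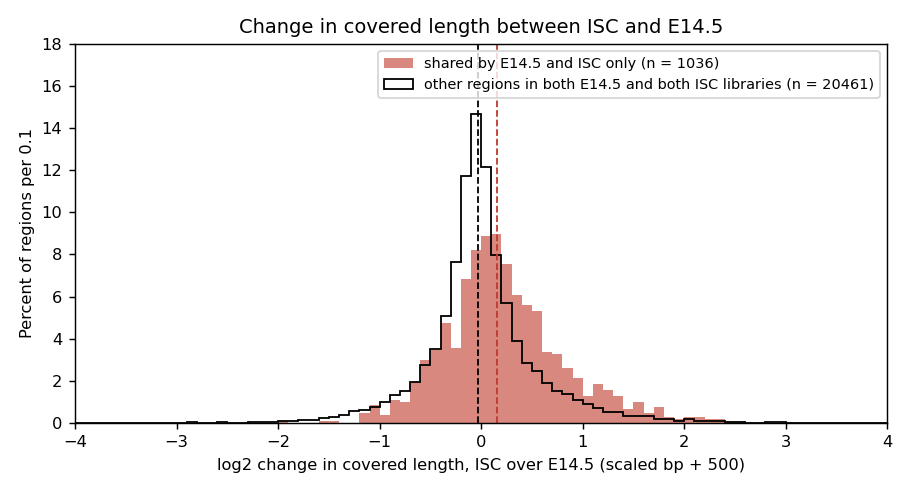
Distribution of the log2 change in scaled covered length, ISC over E14.5 (x axis), as the percent of regions per 0.1 (y axis). Filled bars show the 1036 E14.5/ISC regions, the black outline the 20461 other regions present in both E14.5 and both ISC libraries, and dashed lines the medians of 0.16 and -0.03.

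Among the 12 longest regions 4 were called longer in ISC and none shorter. Over all E14.5/ISC regions 29.1% were called longer and 8.88% shorter, and over all regions tested 16.1 and 19.7%. At chr4:122724558-122730340 the log2 change was 1.00 (SE 0.119, adjusted p = 0.00178 by limma, and 0.0124 with the E14.5 and ISC libraries alone). At chr15:61363506-61369034 it was 0.90 (SE 0.154, adjusted p = 0.00729 by limma, and 0.0302). At chr6:34102660-34106874 it was 0.58 (SE 0.109, adjusted p = 0.00974 by limma, and 0.0346). The region on chromosome 10 had 0.34 (adjusted p = 0.0272 by limma), which did not pass with the E14.5 and ISC libraries alone (0.0675). It also did not pass by limma without scaling (0.118) or with 100 bp added in place of 500 bp (0.0617). Leaving out E14.5 replicate 1 ended the calls on chromosomes 6, 10 and 15, at log2 changes of 0.48, 0.31 and 0.80. The call on chromosome 10 also ended without E14.5 replicate 2 (0.36) and without ISC replicate 1 (0.27). The other 8 did not pass, with log2 changes of -0.15 to 0.46. The highest of these, at chr7:120189649-120193303 (adjusted p = 0.0778 by limma), passed without scaling (0.0133), with peaks of −log10 q of at least 10 (0.0434) and without ISC replicate 2 (0.0180).

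The strongest rises in ISC were regions that were domains of several kilobases in stem cells and had 1 to 3 short peaks at E14.5. At chr11:108840240-108848501 peaks covered 7116 and 8262 bp in ISC, against 774 and 869 bp at E14.5. This is 7.69 ± 0.810 kb in ISC and 0.822 ± 0.0672 kb at E14.5 (SD, n = 2 each), and the log2 change of scaled length was 2.53 (SE 0.140, adjusted p = 0.00014 by limma, and 0.00337 with the E14.5 and ISC libraries alone). Its strongest peak ranked at 74.3 and 80.1 in the ISC lists and at 47.3 and 37.1 in the E14.5 lists. Its 25 kb flanks held no other peak in the embryonic or enterocyte libraries.

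The next 4 regions had the same form. At chr19:10152787-10157269 the ISC libraries had 3763 and 4407 bp and the E14.5 libraries 353 and 225 bp. At chr13:24800956-24806335 they had 4913 and 5380 bp in ISC and 476 and 592 bp at E14.5. At chr12:110122883-110130031 they had 5239 and 7043 bp in ISC and 1425 and 303 bp at E14.5. At chr2:157915049-157918697 they had 3261 and 3649 bp in ISC and 268 and 258 bp at E14.5. These regions were picked among those whose ISC and E14.5 libraries did not overlap, so their separation is part of the choice. The E14.5 replicates on chromosome 12 were themselves far apart. The log2 changes were 2.42, 2.34, 2.32 and 2.25, with adjusted p from 0.00012 to 0.00425 by limma, and from 0.00308 to 0.0233 with the E14.5 and ISC libraries alone. The E14.5 peak on chromosome 19 was close to the threshold, with ranks of 0.760 and 6.09.

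The regions that fell most in ISC were long at E14.5 and covered over a smaller length in both ISC libraries. At chr15:66792245-66796135 peaks covered 292 and 1027 bp in ISC, against 3891 and 3761 bp at E14.5 (log2 change -1.96, adjusted p = 0.00105 by limma, and 0.0096 with the E14.5 and ISC libraries alone). Its flanks moved likewise, with 2.58 and 5.90 kb of other peaks within 25 kb in ISC, against 28.6 and 24.5 kb at E14.5. At chr4:108578025-108583576 the ISC libraries had 776 and 2650 bp and the E14.5 libraries 5552 and 5036 bp (log2 change -1.55). At chr13:105589072-105591064 they had 207 and 515 bp in ISC and 1770 and 1856 bp at E14.5 (-1.42). At chr4:106696554-106699210 they had 406 and 1305 bp in ISC and 2553 and 2280 bp at E14.5 (-1.20), and at chr12:85424710-85426549 they had 285 and 692 bp in ISC and 1606 and 1840 bp at E14.5 (-1.19). These 4 had adjusted p of 0.00058 to 0.00781 by limma, and 0.007 to 0.033 with the E14.5 and ISC libraries alone. In all 5 the covered length was smaller in ISC replicate 1 than in ISC replicate 2, and on chromosome 4 the call at chr4:108578025-108583576 was lost without E14.5 replicate 2 (adjusted p = 0.0507 by limma, log2 change -1.52).

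The surroundings of the regions were then examined. The rule names only peaks inside a region, but an E12.5 or enterocyte peak that touched the region would have excluded it. The stretch next to a region is thus partly cleared of such peaks by the rule, and counts without the nearest 5 kb are given below. Neighbouring peaks of a locus can share its activity, which was not tested. For every merged region, the length of peaks within 25 kb on either side was summed, leaving out the region itself and every peak of an E14.5/ISC region. Around the E14.5/ISC regions the scaled length was 2.92 ± 0.0211 kb at E12.5, 3.84 ± 0.0217 kb at E14.5, 4.38 ± 0.0793 kb in ISC and, in enterocytes, 3.05 ± 0.0520 kb (SD, n = 2 each). Around all regions it was 3.69, 3.79, 3.83 and 4.11 kb in the same order. The flanks held no peak around 30.6% of E14.5/ISC regions at E12.5, 19.0% at E14.5, 15.8% in ISC and 43.0% in enterocytes. Around all regions these shares were 22.2, 19.6, 23.3 and 36.3%, so E14.5 was near the general level. Coverage beside these regions was thus higher at E14.5 and in ISC than at E12.5 and in enterocytes, although no group lacked it.

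The same limma model was fitted to the flanks of 71515 regions, 922 of them E14.5/ISC regions. At E14.5 the flanks of 272 (29.5%) were more covered than at E12.5 and those of 22 (2.39%) less. Over all regions 16.7% were more covered and 11.4% less, and over the other shared regions 17.5 and 6.63%. The median log2 change was 0.32 around E14.5/ISC regions and 0 around all regions. With the 5 kb next to each region left out, flanks were more covered around 220 E14.5/ISC regions and less around 25. Over all regions these counts were 10464 and 6287. The filter of a peak in at least 2 libraries was applied anew to these shorter flanks. The numbers tested can thus be below 922 and 71515, and no shares are given. Flanks of regions present at E14.5 alone were also often more covered at E14.5, in 32.6%, as were those of regions with E14.5, ISC and enterocyte peaks, in 35.7%. Without scaling for covered genome, flanks were more covered around 176 E14.5/ISC regions and less around 4, against 7593 and 3251 over all regions, whose median then moved to 0.18. With 1 library left out these calls dropped, around all regions too. More covered flanks at E14.5 were called around 15.8% of E14.5/ISC regions without E12.5 replicate 1, 13.3% without E14.5 replicate 1 and 11.7% without E14.5 replicate 2, against 9.39, 6.97 and 6.64% of all regions. Less covered flanks were called around 0.978, 1.22 and 0.662% of E14.5/ISC regions without the same libraries, against 5.37, 6.67 and 5.07% of all regions. Without E12.5 replicate 2, flanks were more covered around 23.97% of E14.5/ISC regions and 15.1% of all regions, and less covered around 1.53% of E14.5/ISC regions and 5.83% of all regions.

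Between enterocytes and ISC the flanks changed more. They were less covered in enterocytes around 475 E14.5/ISC regions (51.5%) and more covered around 71 (7.70%), with a median log2 change of -0.74. Over all regions 28.4% were less covered in enterocytes and 21.8% more, and over the other shared regions 29.2 and 21.1%. With the 5 kb next to each region left out, flanks were less covered around 405 E14.5/ISC regions and more around 82. Over all regions these counts were 17737 and 13740, again without shares because the filter was applied anew. Regions of ISC alone had less covered flanks in enterocytes in 55.2% and regions of all groups except enterocytes in 49.4%. Without scaling for covered genome, the flanks of 543 E14.5/ISC regions were less covered in enterocytes and those of 7 more, against 25160 and 4147 over all regions, whose median then moved to -0.52. Both changes, more at E14.5 than at E12.5 and less in enterocytes than in ISC, were called around 122 E14.5/ISC regions, and neither around 249. These are 13.2 and 27.01% of the E14.5/ISC regions with flanks tested, against 3.41 and 34.7% of all regions tested and 3.67 and 38.1% of the other shared regions. For 215 of the 1036 (20.8%) the flanks held no E12.5 or enterocyte peak, and for 70 they held no peak of any library.

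**Figure D5:**
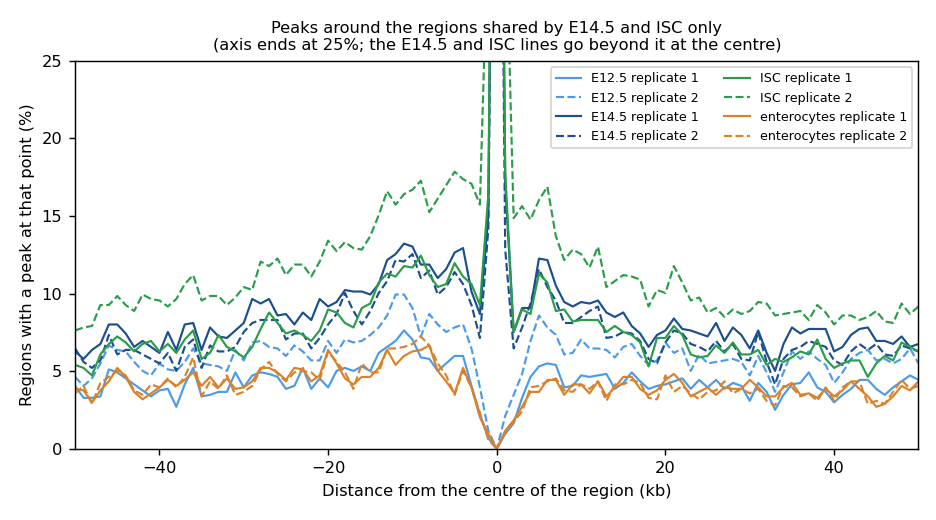
Percent of the 1036 E14.5/ISC regions with a peak (y axis, ending at 25%) at each distance from the region's centre (kb, x axis), for each of the 8 libraries. At the centre the E14.5 and ISC lines reach 70.5 to 96.1% beyond the axis and the others are 0 by the rule. At 5 kb to the left the E12.5 libraries have 5.99 and 7.82%, the E14.5 libraries 12.6 and 11.4%, the ISC libraries 11.97 and 17.9% and the enterocyte libraries 3.57 and 3.48%.

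The nearest E12.5 peak lay a median of 9549.5 bp from an E14.5/ISC region, and within 10 kb of 51.4% of them. The nearest enterocyte peak lay at a median of 15268.5 bp, and within 10 kb of 40.5%. Among all regions without such a peak, the medians were 7528 bp for E12.5 and 18377 bp for enterocytes. A region of all 4 groups lay within 10 kb of 284 E14.5/ISC regions (27.4%), and of 30.0% of all regions that are not themselves of that class. A region of ISC alone lay within 50 kb of 40.9% of the E14.5/ISC regions, against 24.4% of the regions outside that class, and a region of E14.5 alone within 50 kb of 20.5%, against 17.4%. These distances are descriptions and were not tested.

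The E14.5/ISC regions also lay near each other. Another one stood within 50 kb of 258 (24.9%), while 10.2% of the regions outside the class had one that near. For 82 (7.92%) another stood within 1 kb, against 0.80% of the regions outside the class. Such neighbours are counted as separate regions although only a short gap parts them. Other classes were not measured against their own class, so this closeness is not shown to be particular to the E14.5/ISC regions. Joined at that distance they made 894 groups, of which 778 held a single region. The group with the most, 5 regions, spanned chr4:87448732-87507801. Peaks covered 3624 and 4550 bp of that span at E12.5, 12117 and 11795 bp at E14.5 and 7327 and 10212 bp in ISC, and there was no enterocyte peak in it. Some E12.5 peaks thus stood between the regions of the group, and no enterocyte peak did. Of its 5 regions, chr4:87456813-87457943 and chr4:87458110-87459131 lay within 1 kb of each other.

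Groups of 4 regions were found at 3 places. In chr6:112952513-112982729 peaks covered 890 and 653 bp at E12.5, 4731 and 5294 bp at E14.5 and 9653 and 13453 bp in ISC, with no peak in enterocytes. In chrX:141848092-141920120 they covered 4722 and 4249 bp at E14.5 and 4135 and 7618 bp in ISC, and neither E12.5 nor enterocytes had a peak in the whole span. Its 4 regions were covered over 425 to 1473 bp in ISC replicate 1 and 551 to 2497 bp in ISC replicate 2, against 346 to 1665 bp and 217 to 1641 bp in the E14.5 replicates. The group of chr6:127213725-127272181 had peaks of every stage, with 2048 and 3381 bp at E12.5, 7040 and 6110 bp at E14.5, 7369 and 11995 bp in ISC and 421 and 769 bp in enterocytes. The first by chromosome name of the 17 groups of 3 regions, in chr10:42606489-42634676, had 212 and 258 bp at E12.5, 4225 and 3345 bp at E14.5, 7045 and 10533 bp in ISC and none in enterocytes. Of all 21 groups of 3 or more regions, 13 had no enterocyte peak in their span and 9 no E12.5 peak. The regions inside these spans lack such peaks by the rule. Spans of other regions were not measured for comparison, so these counts are descriptions only.

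The regions were spread over all chromosomes except Y and the mitochondrial genome. Chromosome 6 held 85 of them, 1.92% of its merged regions, and chromosome 4 held 83, or 1.60%. The lowest shares were 0.974% on chromosome 12, with 32, and 0.996% on chromosome 11, with 57. The X chromosome held 20.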

How the data were processed

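H3K27ac ChIP-seq was analysed from 8 deposited peak lists. The submitters' processing notes name MACS2, SAMtools 1.2, Bowtie 1.1.2, bcl2fastq 1.8.4 and the build mm9. Per the file headers, MACS 2.1.0.20140616 called narrow peaks for each library against its own input at a q-value threshold of 0.05. MACS also gave the deposited pileup signal, −log10 p and q values and fold enrichment ratio of each peak, used here within a list alone. No counts per region entered, so there are no counting intervals. Depth was 34.6 to 54.6 M ChIP tags per library. P-values rest on the spread between the 2 libraries of a group, pooled over the groups fitted and moderated by limma over all regions. For the length of the E14.5/ISC regions, the E12.5 and enterocyte libraries add no spread to this pool. A permutation test of 2 against 2 libraries cannot go below p = 0.333.

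Peaks were merged where they overlapped or touched. Covered lengths were scaled to the mean covered genome of the 8 libraries. Group means of log2(scaled bp + 500) were fitted with limma 3.58.1 in R 4.3.3 (eBayes with trend and robust, 4 residual degrees of freedom), with Benjamini-Hochberg adjustment over all regions having a peak in at least 2 libraries. Fold changes depend on the added 500 bp. Scripts were tested on simulated data. With 200 of 53123 simulated regions changed by a log2 change of 1, 0% were recovered. With 8000 changed by 1, 77.9% of rises and 77.0% of falls were recovered, beside 460 false calls. With 200 changed by 3, 90% of rises and 73% of falls were recovered, beside 19 false calls. The simulation gave all groups the same spread, so it does not cover the too small p-values of the E14.5/ISC regions.

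The regions named are the 12 longest, in each direction the 5 whose groups did not overlap and whose change was largest, and the 5 largest groups within 50 kb, with ties taken in order of chromosome name and start. The regions and these rules were chosen with earlier results of these data known, and the flanks after seeing the peak lists. Planned descriptions of genes, markers and sequences are not reported here, because the tables are on GRCm38.p6. Alternatives were a stricter q, other merging, coverage, scaling, pseudocounts and filters, a replicate block and leaving out each library. For the flanks, the 5 kb next to the region was also left out. Replicate numbers did not pair the libraries (correlations of deviations -0.14 to 0.13 between groups).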

Additional observations from a re-analysis of the deposited data

How the results depend on the processing

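The number of E14.5/ISC regions, 1036, was 713 with peaks of −log10 q of at least 10, 709 with equal numbers of peaks and 798 with peaks merged within 1 kb, but 250 when a library had to cover at least 50% of the region, and 1088 to 1743 leaving out 1 library. Of the 1036, 443 stayed with equal numbers of peaks. For covered length in ISC against E14.5, regions called longer numbered 8563 and shorter 10485 over all regions, but 4443 and 4558 with peaks of −log10 q of at least 10, and 4111 to 6911 and 5940 to 10193 leaving out 1 library. The 92 E14.5/ISC regions called shorter were 56 with the E14.5 and ISC libraries only, 47 without scaling and 64 to 153 leaving out 1 library, and the 301 called longer 247 to 272. Without scaling, flanks more and less covered at E14.5 than at E12.5 numbered 7593 and 3251 over all regions, against 11948 and 8182 with it, and 176 and 4 around E14.5/ISC regions. The median over all regions then moved to 0.18. Leaving out 1 library gave 4696 to 10522 and 3587 to 4706 over all regions, and 106 to 220 and 6 to 14 around E14.5/ISC regions. Between enterocytes and ISC, flanks more covered numbered 4147 over all regions and 7 around E14.5/ISC regions without scaling. Leaving out 1 library, the median log2 change of these flanks was -0.84 to -0.60 around E14.5/ISC regions and -0.04 to 0 over all regions. Of the 12 longest regions, the log2 change of the second turned to 0.029 without scaling and that of the fifth to 0.0822 with peaks of −log10 q of at least 10. Leaving out 1 library, the second ranged from -0.11 to 0.10, the third from -0.11 to 0.20, the ninth from -0.11 to 0.25 and the twelfth from -0.0718 to 0.32, and none of these was called. For the 10 most changed regions, 118 of 120 alternative values kept direction and call, and 2 kept direction only. A replicate block gave 260 longer and 73 shorter E14.5/ISC regions, 247 and 19 flanks at E14.5 against E12.5 and 71 and 456 in enterocytes against ISC. Over all regions that block gave 8112 and 9886, 10758 and 7060, and 14770 and 19611. A crossed replicate block, chosen after seeing the data because numbers deviated oppositely between some groups, gave 267 and 73, 273 and 23, and 73 and 492. Its counts over all regions were 8458 and 10394, 12314 and 8285, and 16086 and 20824. Of the regions named singly for their length or change, the block ended the call of the longest, on chromosome 10, and the crossed block ended none. The causes of these shifts were not tested. Peak lists hold no depth per region, so a missing peak sets no limit on the mark.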
